A study of Rattus norvegicus with 232 samples.

Results

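WKY/NCrl is the inbred Wistar Kyoto rat, the strain most often set beside the spontaneously hypertensive rat as its normotensive control. Its brain RNA was compared here with that of 5 other classic inbred strains, ACI/SegHsd, COP/CrCrl, DA/OlaHsd, SS/JrHsd and SR/JrHsd. The genes described are those in which all 3 WKY/NCrl animals lay above, or all 3 lay below, every animal of the other 5 strains. There were 286 such genes among 20859 tested, 181 with WKY/NCrl higher and 105 with WKY/NCrl lower.

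The series profiled whole brain of untreated male rats of inbred strains by stranded sequencing of ribosome-depleted total RNA, with 232 samples in all. The paper adds that the classic strains came from commercial breeders, that the rats were killed as young adults and that each brain was cut sagittally. The labels give no genetic manipulation and no treatment for any of the 6 strains. Batch numbers also vary between the strains, and the paper names 2 breeders for the classic strains. The label suffix is Crl for WKY/NCrl and COP/CrCrl, and Hsd for ACI/SegHsd, DA/OlaHsd, SS/JrHsd and SR/JrHsd. If the suffix follows the breeder, breeder largely cannot be told apart from the contrast of strains. Every strain has 3 labelled animals, but COP/CrCrl replicate 1 is not in the table used here, so that the comparison rests on 17 animals, 3 of WKY/NCrl and 14 of the other strains. Animals of 1 inbred strain share nearly 1 genotype, and the replicates therefore measure the spread between animals of a strain and not the spread between rat strains.

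An inbred strain is fixed for 1 allele at almost every locus. A variant that changes the transcription, splicing or stability of a nearby gene then gives every animal of that strain a like level of that RNA, and genes close together on a chromosome are inherited as a block. WKY/NCrl and the spontaneously hypertensive strains descend from the same Wistar colony in Kyoto, and the stroke-prone strain SHRSP was in turn bred from SHR.

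Values were used as deposited. They lie on a log2 scale, and the authors had already put the libraries on a common level. The transformation they describe for an earlier version of these tables pulls differences of weakly measured genes towards 0. No counts were used, so the depth of each library is unknown. The median over genes lay between 8.29 and 8.38 in all 17 libraries. The median absolute difference between 2 libraries ran from 0.0857 to 0.366 over all pairs, and from 0.105 to 0.123 between the WKY/NCrl animals. Libraries of ACI/SegHsd replicate 1, COP/CrCrl replicate 2, SS/JrHsd replicate 1 and SR/JrHsd replicate 1 stood apart, at 0.2 to 0.274 from the libraries of other strains, against 0.123 to 0.170 for the other 13. Without these 4 libraries 495 genes met the rule. All 4 are animals of the comparison strains, so leaving them out can only relax the rule. The 286 genes therefore had to be among the 495. WKY/NCrl animals 1 and 2 carry batch number 10 and animal 3 batch number 11, and the sample titles give other batch numbers for some of the 17.

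In a limma fit with 1 coefficient per strain, the contrast of WKY/NCrl against the mean of the other 5 strain means passed a false discovery rate (FDR) of 5% for 324 genes, which is 1.55% of those tested. Of these, 197 genes (0.944%) were higher and 127 (0.609%) were lower in WKY/NCrl. Without the 4 libraries that stood apart the fit called 536 genes. The rule of no overlap held for 1.37% of genes, 0.868% above and 0.503% below. Both criteria were met by 161 genes (0.772% of those tested), 108 higher and 53 lower. The rule and the fit use the same values, so that their overlap is a description. With strain means as the units, which sets 1 strain against 5, limma called 21 genes, and 987 had an unadjusted p under 0.05. An exact permutation test of 1 strain mean against 5 cannot give a p under 0.167 for a single gene. Centring each library on its median turned the split of the no-overlap genes from 181 above and 105 below into 139 above and 146 below, so the excess of higher genes depends on the scaling.

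Most of the differences were small. The median absolute difference of the 286 genes was 0.463, against 0.0848 over all genes, and 26 genes differed by 1 or more. The gap between the nearest WKY/NCrl animal and the nearest other animal reached 0.5 in 21 genes, 15 higher and 6 lower. In 120 genes the gap was under 0.05, and 315 further genes missed the rule by under 0.05. Just inside lay Dynlt2b, Tmem159 and Cog5 with gaps of 0.00105 to 0.00131, and just outside lay Tmlhe, with a gap of -5.55e-05. Of the 286 genes, 83 had a mean over the 17 animals above the median gene, and 102 carry an uncharacterised LOC or RGD identifier.

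By the same rule, ACI/SegHsd had 78 genes, SS/JrHsd 80, DA/OlaHsd 125 and SR/JrHsd 342 outside the animals of the 5 strains that remained. COP/CrCrl had 502, but only 2 of its animals had to agree. No test was made of these counts. ACI/SegHsd, COP/CrCrl, SS/JrHsd and SR/JrHsd each hold a library that stood apart, and the strains set against each differ. The order of the strains is therefore not read.

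**Figure D1:**
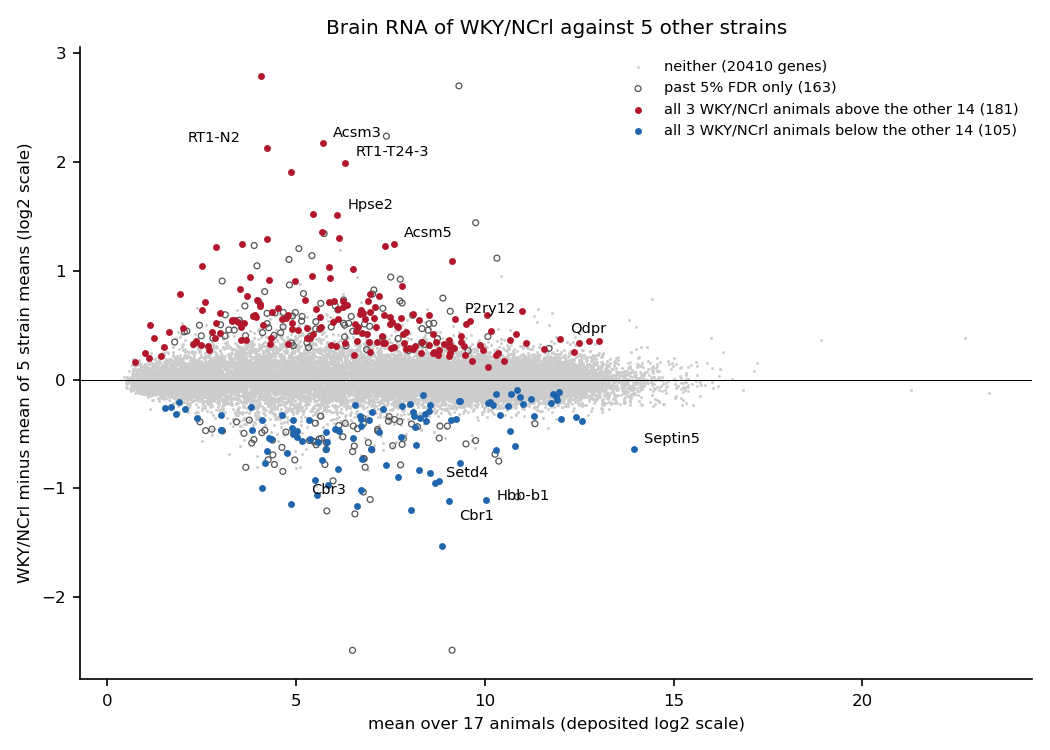
Difference between WKY/NCrl and the mean of the other 5 strain means (vertical, log2 scale) against the mean over 17 animals (horizontal, log2 scale), 1 point per gene. Red points are the 181 genes with all 3 WKY/NCrl animals above the other 14, blue points the 105 genes with all 3 below, open circles the 163 genes past 5% FDR whose animals overlap. Acsm3 stands at 2.18 and Cbr1 at -1.12.

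Neighbouring genes of chromosome 11, Setd4, Cbr1 and Cbr3, were lower in WKY/NCrl than in any other animal. Cbr1 and Cbr3 encode carbonyl reductases, cytosolic enzymes that reduce ketones of drugs, quinones and lipid products, and Setd4 encodes a lysine methyltransferase. Their promoter windows are shown because these genes lie side by side and were low together. The RefSeq windows run from 250 bases before to 50 after the annotated start on the reference genome GRCr8, whose bases are those of a BN rat and not of WKY/NCrl. Capitals were reserved for matches to the core of the antioxidant response element, TGACNNNGC on either strand, which 12.1% of 33469 such windows hold, and none of the windows of Setd4, Cbr1 and Cbr3 had one. The same scan found 1 match in a window of Gsta3, a gene described below, whose sequence is not printed.
Setd4, chr11:46343975-46344274, minus strand: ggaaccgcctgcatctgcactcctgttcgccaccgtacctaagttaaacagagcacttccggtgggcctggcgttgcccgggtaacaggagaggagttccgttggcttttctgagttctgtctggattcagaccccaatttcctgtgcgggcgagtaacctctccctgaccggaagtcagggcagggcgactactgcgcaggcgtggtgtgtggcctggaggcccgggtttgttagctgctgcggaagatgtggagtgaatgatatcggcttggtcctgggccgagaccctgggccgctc
Cbr1, chr11:46346155-46346454, plus strand: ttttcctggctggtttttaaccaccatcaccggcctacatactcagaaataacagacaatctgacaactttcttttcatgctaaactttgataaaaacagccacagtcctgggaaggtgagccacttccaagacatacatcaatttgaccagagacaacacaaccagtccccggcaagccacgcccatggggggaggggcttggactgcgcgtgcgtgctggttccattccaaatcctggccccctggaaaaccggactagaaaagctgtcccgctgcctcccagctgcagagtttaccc
Cbr3, chr11:46478045-46478344, plus strand: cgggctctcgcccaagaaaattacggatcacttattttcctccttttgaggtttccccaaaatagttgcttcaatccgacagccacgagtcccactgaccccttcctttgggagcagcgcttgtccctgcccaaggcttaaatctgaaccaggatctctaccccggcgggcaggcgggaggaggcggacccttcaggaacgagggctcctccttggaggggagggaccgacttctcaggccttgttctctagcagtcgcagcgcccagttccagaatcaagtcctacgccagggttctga
The annotated starts of Setd4 and Cbr1 lie 2.38 kb apart on opposite strands, and that of Cbr3 lies 132 kb beyond Cbr1.

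Cbr1 measured 8.23, 8.19 and 7.97 in the WKY/NCrl animals and 8.90 to 9.59 in the other 14, with a median of 9.25. The lowest of the others was DA/OlaHsd replicate 3, and the groups were 0.67 apart. The difference was -1.12 ± 0.09 (SE, n = 3 against 14, limma adjusted p = 6.61e-06). For Cbr3 the 3 WKY/NCrl values of 5.92, 5.93 and 5.84 lay under a range of 6.50 to 7.20 (median 6.93), a difference of -1.01 ± 0.11 (SE, limma adjusted p = 7.30e-05). Setd4 read 8.03, 7.93 and 7.77 against 8.64 to 9.16 (median 8.81), a difference of -0.95 ± 0.09 (SE, limma adjusted p = 1.88e-05). Of 31 named genes with a RefSeq transcript in the transcript table of the same libraries, 21 had 1 or more transcripts whose WKY/NCrl animals lay outside on the same side, and Mx1, Usp18, Irf9, Fcgr2a, Ddx56, RT1-CE15 and Znrd1as1 were among those that had none. All 3 transcripts of Setd4 lay below the other 14 animals, as did the single transcript measured for Cbr1 and for Cbr3. The annotation deposited with the tables, whose genome build is not given in the sources used here, places both on chromosome 11. Setd4 spans 32768282 to 32860749 on the minus strand there, and Cbr3 spans 32860193 to 33016877 on the plus strand. These spans overlap, but that start of Cbr3 conflicts with the RefSeq start 132 kb beyond Cbr1. No position could be had there for Cbr1, so the overlap is not read as one of the genes. WKY/NCrl had the lowest mean of all 74 strains in the table for each of Setd4, Cbr1 and Cbr3, and its 3 animals lay below all other animals of the panel.

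In a stretch of 1456.3 kb of chromosome 1, 6 of the 23 genes tested met both criteria, 5 of them higher and 1 lower in WKY/NCrl, beside 0.772% of all genes. This stretch and those of chromosomes 20 and 13 described next were picked because, over 2 Mb, they held the most such genes, so their counts restate the choice. Acsm3 and Acsm5 encode mitochondrial acyl-CoA synthetases of the medium-chain family, which activate fatty acids. Acsm3 had values of 7.48, 7.69 and 7.34 in WKY/NCrl and 5.01 to 5.76 (median 5.27) in the other animals. Among the 286 genes with a symbol other than a LOC or RGD identifier this was the largest difference, at 2.18 ± 0.13 (SE, limma adjusted p = 2.37e-07), or 4.52-fold on the transformed scale. Acsm5 read 8.56, 8.68 and 8.62 against 7.00 to 7.91 (median 7.34), a difference of 1.25 ± 0.10 (SE, limma adjusted p = 4.70e-06). The groups were far apart for both synthetases, by 1.58 and 0.66.

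At the far end of the chromosome 1 stretch, Vwa3a, which encodes a protein with a von Willebrand factor A domain, was lower. Its WKY/NCrl values were 7.75, 7.96 and 7.90, the others ran from 8.47 to 9.08 (median 8.66), and the difference was -0.86 ± 0.11 (SE, limma adjusted p = 0.000427). No transcript of Vwa3a, of 3 measured, kept the groups apart. Pdilt, a protein disulfide isomerase homologue, differed by 0.83, the exonuclease gene Rexo5 by 0.48 and the lipid droplet gene Tmem159 by 0.34, with gaps of 0.051, 0.176 and 0.0012. Pdilt differed by 0.51 in an earlier table quantified against Ensembl genes and by 1.86 among genes reconstructed from the reads, where it did not pass (limma adjusted p = 0.0804). Tmem159 failed the 5% FDR in 20 of 32 alternative fits or tables. In the deposited annotation Acsm5 spans 173870756 to 173899795 and Acsm3 174133006 to 174162346, both on the plus strand.

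The rat major histocompatibility complex, called RT1, lies on chromosome 20 and encodes the molecules that present peptides to T cells together with many class I-like relatives. A stretch of 1823.8 kb there held 9 genes past both criteria among 51 tested. RT1-N2, a class I-like gene, measured 5.77, 6.03 and 6.13 in WKY/NCrl and 3.47 to 4.25 (median 3.87) elsewhere. The difference was 2.13 ± 0.12 (SE, limma adjusted p = 1.24e-07). RT1-T24-3, of the same class, read 7.706, 7.90 and 8.19 against 5.09 to 6.41 (median 6.01), a difference of 2.00 ± 0.19 (SE, limma adjusted p = 1.88e-05). RT1-T24-1 differed by 1.22, RT1-M1-2 by 0.77 and RT1-CE15 by 0.65, all with WKY/NCrl higher. In the Ensembl-based table RT1-T24-3 differed by 0.67 and RT1-M1-2 by 0.22. Among reconstructed genes RT1-N2 differed by 0.38 and RT1-M1-2 by 0.34, and neither passed (limma adjusted p = 0.518 and 0.644). RT1-CE15 differed by 0.37 within batch 10 and by 1.02 within batch 11.

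Not all of the region was higher. RT1-M6-2 read 5.24, 5.04 and 4.93 against 5.48 to 6.22 (median 5.82), a difference of -0.74 ± 0.12 (SE, limma adjusted p = 0.00259). Znrd1as1, whose span overlaps that of RT1-M6-2 on the opposite strand, differed by 0.63 ± 0.12 (SE, limma adjusted p = 0.0121). Olr1748, an olfactory receptor gene, was higher by 0.43 and LOC120093125 was lower by 1.00. The list of MHC and antigen processing genes had 46 measured members, of which 8 were higher and 2 were lower at 5% FDR (1.55% of all genes passed), with a median difference of 0.13 against 0.0043 over all genes. The mean level of the list ran from 6.768 to 6.892 in WKY/NCrl and from 6.382 to 6.763 in the other animals. This mean includes 6 genes above and 1 below that the rule chose, so nothing is read from the narrow separation. Without the 4 libraries that stood apart 14 genes of the list passed, without WKY/NCrl replicate 2 or 3 it was 6, with strain means as units 4, and among reconstructed genes, or genes with a mean above the median gene, 1. The filter by mean takes RT1-N2 and RT1-T24-3, with means of 4.23 and 6.30, out of the test. The Ensembl-based values gave 6 genes. Beta-2 microglobulin, B2m, the shared light chain of class I molecules, lay above the other animals at 13.22, 13.33 and 13.37 against 12.58 to 13.20 (median 13.00), but its limma adjusted p was 0.197. RT1-T24-4, with a mean of 8.80, was lower by 0.54 ± 0.11 (SE, limma adjusted p = 0.0146), with animals that overlapped. RT1-T24-2, with a mean of 7.68, differed by -0.31 (limma adjusted p = 0.469). The higher RT1-T24-3 and RT1-T24-1 had means of 6.30 and 2.89. RT1 genes are near-identical copies and differ between strains, so reads can be split between them, which was not tested. The feature with the highest mean under the symbol RT1-T24-3 among the reconstructed genes differed by -0.49 ± 0.26 (SE, limma adjusted p = 0.696), the opposite direction.

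On chromosome 13 a stretch of 857.83 kb held 5 genes past both criteria among 31 tested. Fcgr2a and Fcgr2b encode low-affinity receptors for immunoglobulin G and are near relatives in sequence. Fcgr2a read 8.06, 8.14 and 8.13 in WKY/NCrl against 7.19 to 7.89 (median 7.66), and Fcgr2b 8.25, 8.15 and 8.44 against 7.67 to 8.04 (median 7.87). The differences were 0.49 ± 0.10 and 0.43 ± 0.09 (SE, limma adjusted p = 0.0139 and 0.0173). Tstd1, a sulfurtransferase homologue at a low level, was higher by 1.05. F11r, an adhesion protein of tight junctions, was lower by 0.43, with 7.84, 7.72 and 7.86 against 8.05 to 8.39 (median 8.24, limma adjusted p = 0.00119). Cd244, an immune cell receptor gene, was higher by 0.62, but its feature among the reconstructed genes differed by -0.24 (limma adjusted p = 0.841).

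**Figure D2:**
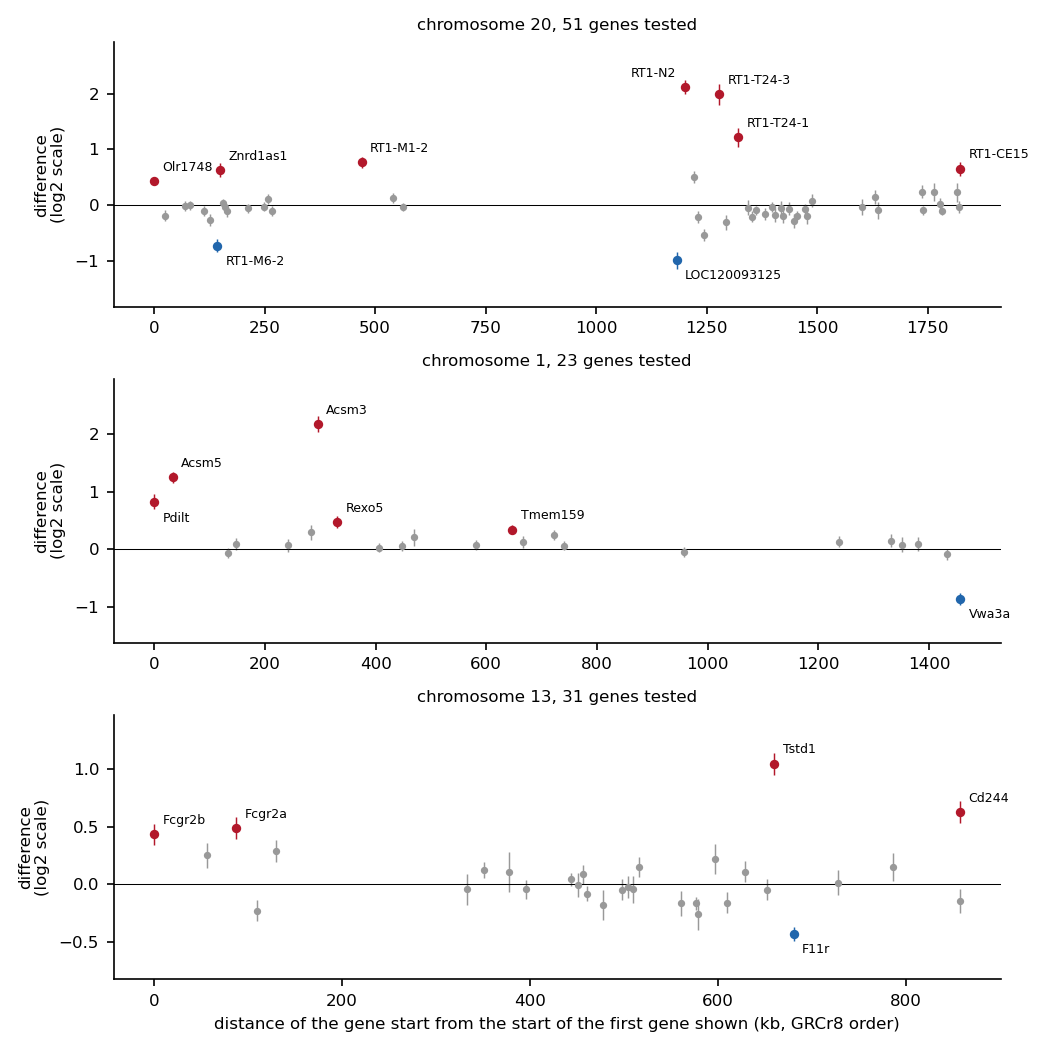
Difference between WKY/NCrl and the mean of the other 5 strain means (log2 scale, bars ± SE of the limma fit) for each tested gene of the 3 stretches, against the distance of its start from the first gene shown (kb). Red and blue points are the genes with all 3 WKY/NCrl animals above or below the other 14, and grey points overlap. Genes with differences near 0 lie between those that differ.

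Positions on GRCr8 could be had for 263 of the 286 genes and for 19539 of those tested. Of these 263 genes, 97 (36.9%) had another of the set within 1 Mb, against 24.4% of the remaining genes with a position. By RefSeq class, 79.5% of the 263 genes were protein coding, against 85.7% of all tested genes with a class.

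Interferon-stimulated genes are switched on together by type I and type II interferons and encode antiviral and signalling proteins. Of 33 measured, 8 were higher in WKY/NCrl at 5% FDR and 1 was lower, beside 0.944% and 0.609% of all genes. In 6 of the list all WKY/NCrl animals lay above the others, as in 0.868% of all genes. The median difference of the list was 0.26, against 0.0043 over all genes, and 27 of the 33 differences were positive. Its mean level per animal ran from 7.17 to 7.27 in WKY/NCrl and from 6.75 to 7.18 in the other animals, so the ranges met. Rtp4, an interferon-induced chaperone, read 7.53, 7.54 and 7.46 against 5.93 to 7.22 (median 6.85). Its difference was 0.72 ± 0.10 (SE, limma adjusted p = 0.000752), and the low end of the other animals was SR/JrHsd. Mx1, an antiviral GTPase, read 7.47, 7.67 and 7.79 against 6.47 to 7.39 (median 6.94), a difference of 0.67 ± 0.14 (SE, limma adjusted p = 0.0246). Usp18, which removes the modifier ISG15 from proteins, read 7.48, 7.34 and 7.77 against 6.63 to 7.26 (median 7.01), a difference of 0.57 ± 0.09 (SE, limma adjusted p = 0.00376). Irf9, the DNA-binding subunit of the interferon-activated complex, read 9.27, 9.33 and 9.33 against 8.83 to 9.23 (median 9.00), a difference of 0.30 ± 0.07 (SE, limma adjusted p = 0.0249). The groups came within 0.1 of each other for Mx1, Usp18 and Irf9.

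Parp9, a partner in interferon signalling that was on none of the lists, was higher by 0.42 ± 0.10 (SE, limma adjusted p = 0.0331), and lost the call in 16 of 34 alternatives. Mx2, Oas1b, Isg15 and Dhx58 passed the test with animals that overlapped, at differences of 1.12, 0.82, 0.52 and 0.39. Ifit1 went the other way, with 4.57, 4.63 and 5.08 in WKY/NCrl and 4.72 to 8.02 (median 5.52) elsewhere, a difference of -1.21 ± 0.18 (SE, limma adjusted p = 0.00195). The strain means of the 5 other strains had an SD of 1.25 for Ifit1. Ifit2 and Ddx58 lay above the others without passing the test, at adjusted p = 0.243 and 0.155 by limma. The count of 8 higher genes was 9 without the 4 libraries that stood apart, 5 with the batch characteristic as a covariate, 5 without DA/OlaHsd, and 5, 3 and 3 without WKY/NCrl replicate 1, 2 and 3 in turn. It was 1 among reconstructed genes and 2 among genes with a mean above the median gene, which is 8.34. That filter takes Rtp4, Mx1 and Usp18, with means of 6.90, 7.09 and 7.06, out of the test. How many genes of the list were measured in these 2 settings is not given here. With strain means as units it was 0 by limma, beside 21 of all 20859 genes at the same FDR, so that this 0 is near the background share.

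RefSeq promoter windows were found for 21 of the 33 interferon-stimulated genes. The core of the interferon-stimulated response element reads GAAA, any 2 bases and GAAA again on either strand. It occurred in 1 or more windows of 16 of the 21 genes, and in 3.92% of all 33469 single windows. A gene can have several windows, which favours a share of genes over a share of windows. Windows were found for 190 of the 286 genes, and 10 of these genes (5.26%) had it in 1 or more. Among the 21, the windows of Mx1 and Irf9 had no match and that of Oas1b had one. Ifi44l, an interferon-stimulated gene that was on none of the lists and was picked after its values were seen, met both criteria and had the highest mean of 74 strains. It read 6.00, 6.49 and 6.20 against 4.20 to 5.85 (median 5.37), a difference of 0.95 ± 0.23 (SE, limma adjusted p = 0.0493). In the Ensembl-based table the difference of Ifi44l was 0.41, the animals overlapped and the limma adjusted p was 0.0526. Its window is shown with 2 matches in capitals.
Ifi44l, chr2:243328473-243328772 of GRCr8, plus strand: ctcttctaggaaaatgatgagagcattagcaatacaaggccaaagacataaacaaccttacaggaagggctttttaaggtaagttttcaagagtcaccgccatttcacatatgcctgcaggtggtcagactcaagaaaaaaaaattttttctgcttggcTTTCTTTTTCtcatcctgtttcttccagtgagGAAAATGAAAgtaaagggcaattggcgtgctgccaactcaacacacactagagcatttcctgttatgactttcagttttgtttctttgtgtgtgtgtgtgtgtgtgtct

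**Figure D3:**
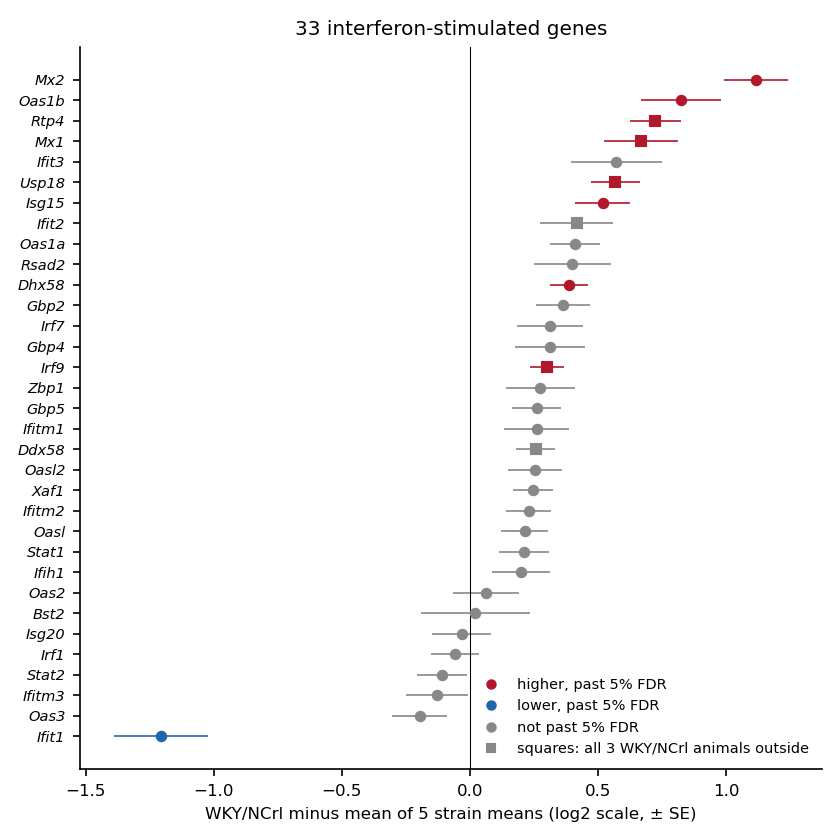
Difference between WKY/NCrl and the mean of the other 5 strain means (horizontal, log2 scale, bars ± SE of the limma fit) for the 33 interferon-stimulated genes. Squares mark the 6 genes with all 3 WKY/NCrl animals above the other 14. Red marks the 8 genes higher at 5% FDR and blue marks Ifit1, the only gene of the list lower at 5% FDR.

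Among strongly expressed genes with a name, 5 were higher and 9 lower in WKY/NCrl past both criteria. P2ry12, the ADP receptor by which microglia sense injury, read 9.65, 9.72 and 9.60 in WKY/NCrl and 8.69 to 9.43 (median 9.14) elsewhere. The difference was 0.55 ± 0.08 (SE, limma adjusted p = 0.00176), and none of its 3 transcripts kept the groups apart. The other 9 microglial markers measured, Cx3cr1, Tmem119 and Csf1r among them, did not pass the test, beside 1.55% of all genes that did. The mean level of the 10 markers ran from 9.39 to 9.52 in WKY/NCrl and from 9.14 to 9.54 in the other animals. In bulk tissue a change in the number of cells of a type and a change of RNA per cell cannot be told apart.

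Qdpr encodes the reductase that regenerates tetrahydrobiopterin, the cofactor of dopamine and serotonin synthesis. It read 12.20, 12.31 and 12.39 against 11.51 to 12.07 (median 11.95), and was higher by 0.37 ± 0.09 (SE, limma adjusted p = 0.0407). The call was lost in 18 of 34 alternatives, among them the batch covariate and each fit without a WKY/NCrl animal, and within batch 10 the difference was 0.19. Slc18a1, a vesicular monoamine transporter at a low level in this table, was lower, with 3.93, 4.00 and 3.59 against 4.13 to 4.67 (median 4.39). Its difference was -0.54 ± 0.10 (SE, limma adjusted p = 0.00767), and that of its RefSeq transcript was -3.15 ± 0.30 (SE). None of the other 17 measured genes of monoamine synthesis and transport passed, beside 1.55% of all genes. Ddx56, a nucleolar RNA helicase, was higher by 0.51 ± 0.10 (SE, limma adjusted p = 0.0109), with 9.92, 9.89 and 10.00 against 9.11 to 9.69 (median 9.41).

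The lower genes were led in level by Septin5, a septin of presynaptic terminals. Septin5 read 13.43, 13.45 and 13.38 in WKY/NCrl and 13.67 to 14.5 (median 14.1) elsewhere, a difference of -0.64 ± 0.10 (SE, limma adjusted p = 0.00211). Adpgk, an ADP-dependent glucokinase, read 10.36, 10.31 and 10.29 against 10.55 to 11.38 (median 10.93), a difference of -0.61 ± 0.06 (SE, limma adjusted p = 5.14e-05), and its 2 transcripts were below the other animals as well. DA/OlaHsd was at the high end for Adpgk. Map3k5, the stress-activated kinase ASK1, read 10.32, 10.31 and 10.22 against 10.65 to 10.87 (median 10.76), a difference of -0.47 ± 0.06 (SE, limma adjusted p = 0.00039). WKY/NCrl had the lowest mean of 74 strains for Septin5, Adpgk and Map3k5.

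Pls1, an actin-bundling plastin, was lower by 0.76. Among reconstructed genes its difference was -0.090 (limma adjusted p = 0.962). Rexo4, a nucleolar exonuclease homologue, was lower by 0.33. Hbb-b1, a beta-globin gene, read 9.01, 9.26 and 8.96 against 9.32 to 10.91 (median 10.40), a difference of -1.11 ± 0.18 (SE, limma adjusted p = 0.00351). The other 6 measured genes of the blood list did not pass, beside 1.55% of all genes that did, and Hba-a1, Hba-a2 and Hbb differed by 0.0035, -0.0033 and 0.30. Globin genes are near-identical copies. Gsta3, a glutathione S-transferase at a low level, read 2.98, 3.15 and 2.99 against 2.12 to 2.62 (median 2.42) and was higher by 0.64 ± 0.09 (SE, limma adjusted p = 0.00140). Gsta3 differed by 0.37 in the Ensembl-based table and by 2.06 among reconstructed genes, where it did not pass (limma adjusted p = 0.0660). Apart from Gsta3 and the neighbours Cbr1 and Cbr3, none of the other 44 measured genes of glutathione and drug metabolism passed, beside 1.55% of all genes, although Cyp1b1 lay above the other animals by 0.014.

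**Figure D4:**
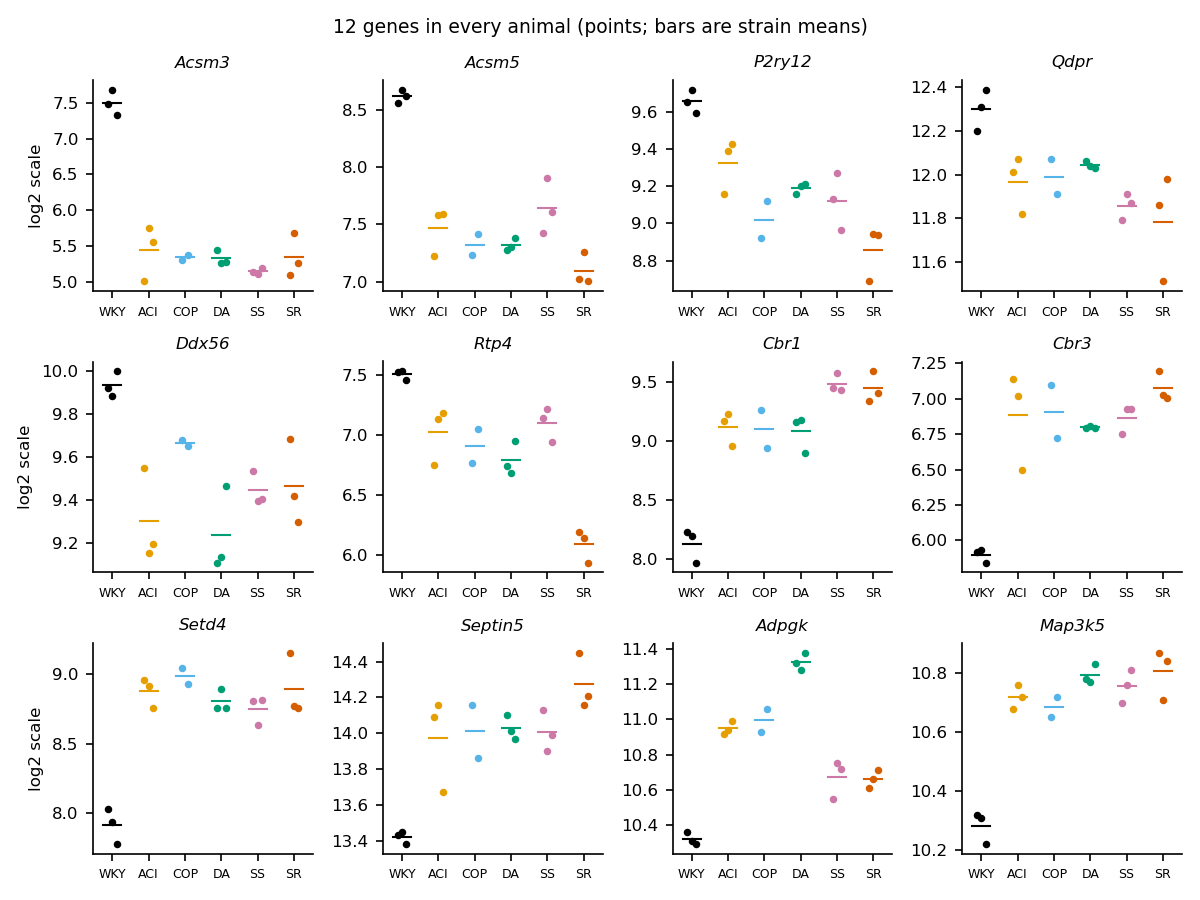
Deposited value (log2 scale) of 12 genes in every animal, 1 point per animal and a bar at each strain mean, with 3 animals per strain and 2 for COP/CrCrl. In every panel the 3 black WKY/NCrl points lie outside the points of the other 5 strains, by 0.67 for Cbr1 and by 1.58 for Acsm3.

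Several lists had no gene past 5% FDR by limma and none outside, namely the stress axis (20 measured), monoamine receptors (26), GABA and glutamate receptors (40), opioid and endocannabinoid genes (17), the renin-angiotensin system (15), clock genes (19) and thyroid, pituitary and hypothalamic genes (23). Their median differences lay between -0.11 and 0.025. With 1.55% of all genes called and 1.37% outside, a count of 0 in lists of this size is near the background share and is no result about them. Over all genes, 2009 had an unadjusted p under 0.05. In the immediate early list 17 of 20 differences were negative, with a median of -0.22, and Fosb lay below the other animals at 6.46, 6.60 and 6.29 against 6.70 to 7.60 (median 7.12), but no gene of the list passed (limma adjusted p = 0.0638 for Fosb). Markers of neurons, astrocytes, oligodendrocytes, endothelium, choroid plexus, meninges, striatum, cerebellum, olfactory bulb, liver and glutamatergic and GABAergic neurons had no gene past the test, and for each the range of the mean marker level in WKY/NCrl met that of the other animals. All 8 meningeal and all 8 choroid plexus markers had positive differences, with medians of 0.19 and 0.17, as had 8 of 9 olfactory bulb markers, while 1 of 9 striatal markers was positive. Positive differences were also few among general neuronal markers (2 of 10, median -0.103) and glutamatergic markers (2 of 8, median -0.0986). The part of tissue makeup in the results was not tested. The neuronal markers, 13.65 to 13.74 in WKY/NCrl, and the astrocyte markers, 13.90 to 14.10, were high in all 17 libraries, as the labelled tissue has them. All 4 measured pineal markers had negative differences, with a median of -0.28, and the 3 measured pituitary markers a median of 0.037.

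The rule fixes the direction of its genes within any batch, so within-batch values show size and not support. Within batch 10, with 2 WKY/NCrl animals and 4 others, Cbr1 differed by -1.01, Acsm3 by 2.11, RT1-N2 by 2.14, Rtp4 by 0.66 and Septin5 by -0.68. Within batch 11, with 1 WKY/NCrl animal and 4 others, the same genes differed by -1.37, 2.19, 2.20, 0.88 and -0.74. Sizes moved by over 1.5 times within batch 11 for Usp18 (0.85), Fcgr2b (0.66) and Slc18a1 (-0.82). With the batch characteristic as a covariate the fit called 304 genes, 265 of them among the 324.

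The 196 animals of 74 strains in the table allow each gene to be placed in the whole panel, without a test, since most other strains were sequenced in other batches. Among the 286 genes, the WKY/NCrl mean was the highest of all strains in 41 and the lowest in 28, together 24.1%, beside 1.11% of all genes. The genes were chosen for WKY/NCrl values beyond 5 of these strains, which favours such ranks, so nothing is read from the share. The 3 WKY/NCrl animals were separated from every other animal of the panel by 8 genes, 2 above and 6 below, among them Map3k5, Setd4, Cbr3 and Cbr1. In most of the 286 genes 1 or more strains lay beyond WKY/NCrl. Counted from the top, Acsm5 had rank 11 and RT1-M1-2 rank 17. In 63 other strains with 2 or more animals, which took no part in choosing the genes, strain accounted for a median of 0.588 of the sum of squares in the 286 genes and 0.438 in all genes. With 63 means fitted to 174 animals, such a share lies well above 0 without any effect of strain, and no baseline was computed. SHR/OlaIpcv and SHRSP/A3NCrl, of the same origin as WKY/NCrl, are among these strains.

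The hypertensive strains of the same Kyoto origin were looked up in these genes. SHR/OlaIpcv had 2 animals with 18 libraries, and SHRSP/A3NCrl had 2 animals. They are set beside the same 14 animals as WKY/NCrl, in genes chosen for where those animals lie, so the values are given side by side and no count is drawn from them. RT1-T24-3 had means of 7.78 in SHR/OlaIpcv and 7.57 in SHRSP/A3NCrl, beside 7.93 in WKY/NCrl and 5.94 over the other 5 strains. Acsm5 stood at 8.01 and 8.66, beside 8.62 and 7.37. Acsm3 stood far below WKY/NCrl in both, at 5.53 and 5.87 beside 7.50 in WKY/NCrl and 5.32 over the others, although 5.87 lay above the highest of the 14 animals. Cbr1 stood at 9.19 and 9.36, within the range of the other 14 animals, and so did Setd4 at 8.81 and 8.70. Cbr3 stood at 6.53 and 6.46, the latter just below the lowest of the 14 animals. For the higher genes, like levels were not limited to these strains. Acsm3 had means of 7.62 in LEW/Crl and 7.58 in MWF/Hsd, Acsm5 of 8.90 in LEW/Crl and RT1-T24-3 of 7.755 in GK/FarMcwi. Counted from the top of 74 strains, WKY/NCrl had rank 3 for Acsm3, 11 for Acsm5 and 4 for RT1-T24-3.

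The same brains are in the earlier Ensembl-based table with all 18 animals, COP/CrCrl replicate 1 included. Of the 286 genes 156 could be matched by identifier. Of these, 150 kept their direction there, 84 again had all 3 WKY/NCrl animals outside the other 15 on the same side, and 87 passed 5% FDR in limma in the same direction. Among all 13789 matched genes 1.40% had the WKY/NCrl animals outside. Setd4 differed there by -1.62, Map3k5 by -0.99, Acsm3 by 2.33 and RT1-N2 by 1.86, and Rexo5 by 0.074, where it did not pass. These are the same animals, so that the agreement concerns the quantification and not the strains.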

How the data were processed

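Whole-brain RNA of WKY/NCrl and 5 other strains was taken from the v7.1 table of RefSeq genes. For v5 tables the authors trimmed reads, removed ribosomal reads, aligned to strain-specific rn6 genomes, estimated counts with RSEM, removed 1 factor of unwanted variation and applied the regularized log of DESeq2. The submitters' processing notes name cutadapt 1.9.1, Bowtie2 2.3.4.3, HISAT2 2.1.0, StringTie 1.3.5 and RSEM 1.3.1. The steps behind v7.1 and its genome build are not given in the sources used here. Its deposited values lie on a log2 scale, depth is unknown, and positions of the deposited annotation were used as given.

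The 73 spike-ins were left out, and none of 20859 genes had a value over 30 in these libraries. The contrast was fitted with limma 3.58.1 in R 4.3.3, with no covariate and Benjamini-Hochberg adjustment at 5% over all genes, and was tested on simulated data. The design named 18 animals, of which 17 are in the table. No source used here describes the replicate numbers as pairing animals. Correlations of deviations from strain means between same-numbered animals ran from -0.409 to 0.665. Their means were 0.122, -0.0143 and 0.169 for replicates 1, 2 and 3. Symbols were matched to RefSeq (GRCr8) for positions and promoters, and GRCr8 coordinates are printed only for promoter windows.

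Named genes were, past both criteria, the largest 12 each way among named symbols with a mean above the median gene (5 higher and 9 lower qualified), members of 29 gene and marker lists, and members of the 3 stretches of 2 Mb with most such genes. The genes and lists were chosen with earlier results of these data known. The paper describes the replicates of a strain as biological replicates, so p-values measure the spread between animals within strains. Alternatives changed covariates, scaling, filter, table, variance prior, unit, animals and strains. Leaving out the libraries that stood apart was added after seeing the data.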

Additional observations from a re-analysis of the deposited data

How the results depend on the processing

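The count of 324 genes at 5% FDR stayed within 1.5 times that size with either batch as a covariate and in a fit over all animals. The same held with other scalings or variance priors and without any 1 comparison strain. The fit over all animals called 437 genes, 277 of them among the 324. The Ensembl table, with 18309 genes and 18 animals, gave 444 calls. With strain means as units the fit called 21 genes (16 higher, 5 lower), and among genes with a mean above the median gene 37 (16 higher, 21 lower). All 37 are among the 324, and fewer genes are tested under this filter. Without the 4 libraries that stood apart it called 536 genes (339 higher, 197 lower). Reconstructed genes gave 348 calls, with the split turned over (137 higher, 211 lower). They are another set of genes whose number is not given here, so their counts cannot be read as shares. Leaving out 1 animal gave 158 to 373 calls, 86 to 229 higher and 71 to 150 lower, and the calls fell by over 1.5 times without WKY/NCrl replicate 1, 2 or 3 (192, 169 and 158). The count of genes with no overlap, 286, was 701 among reconstructed genes, 454 without ACI/SegHsd, 455 without SR/JrHsd and 495 without the 4 libraries. It was 21 with a gap of 0.5 or more, and 290 to 623 without 1 animal, where fewer animals have to agree. Under the filter it was 83, which are simply those of the 286 that the filter keeps. The replicate number as a block, for which no pairing is described, gave 412 genes (252 higher, 160 lower), 319 of them among the 324. Of 39 named genes, 27 could be matched among reconstructed genes, where 6 held their call, 19 kept their direction but lost it and 2 changed direction, RT1-T24-3 (-0.49) and Cd244 (-0.24). No other alternative reversed a named gene. Leaving out animals or strains, another variance prior or strain means as units cannot reverse a gene that the rule chose. For these alternatives the kept direction is no support. With strain means as units 9 named genes passed, Acsm3, RT1-N2, RT1-T24-3, Setd4 and Cbr3 among them. The cause of these changes was not tested. Depth is unknown, so no counting error could be given.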

Other observations

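Other genes past both criteria, named here after their values were seen, include Hpse2, a heparanase homologue, which read 7.21, 7.24 and 7.56 in WKY/NCrl and 5.63 to 6.36 (median 5.78) in the other animals, a difference of 1.51 ± 0.11 (SE, limma adjusted p = 2.53e-06). The means of SHR/OlaIpcv and SHRSP/A3NCrl for Hpse2 were 7.78 and 7.60. Ccdc77, a coiled-coil gene, differed by 1.23, Gng5, a G protein gamma subunit, by 0.86 and Acox2, a peroxisomal acyl-CoA oxidase, by 0.92, all with WKY/NCrl higher. Sec14l3, of a family of lipid-binding proteins, was lower by 1.19 here, but differed by 0.93 in the opposite direction in the Ensembl-based table, where the animals overlapped and the limma adjusted p was 0.472.

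The largest difference of all genes past both criteria belonged to the uncharacterised locus RGD1563294, at 2.79 ± 0.42 (SE, limma adjusted p = 0.00169). Its WKY/NCrl values of 5.43, 5.69 and 7.89 had an SD of 1.35, and the other animals ran from 2.49 to 4.65.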
